A study of Mus musculus with 17 samples.

Results

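The 10 genes described here, Myh6, Myl7, Myl4, Sln, Nppa, Tnnt2, Tnni3, Actc1, Mybpc3 and Lrrc10, belong to cardiac muscle and were read in RNA from mouse lungs. They were chosen by name, as the rows of the gene count table that carry these symbols, and the rule uses no measured value, although the list was drawn up with earlier results of these data known. They are 10 of the 45777 genes in the table, and 10 of 10 were among the 22052 genes that passed the filter on low counts.

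The study asked how the lung transcriptome differs between a focal dose of 65 Gy and a focal dose of 75 Gy, each given as a single fraction to the left lung, at 2 and 6 weeks. All mice were wild-type C57BL/6 males that were 6 weeks old on arrival and were housed for 1 week before irradiation, and the control mice received no radiation. The 17 libraries form 6 groups: control, 65 Gy and 75 Gy at the earlier time and control and 75 Gy at the later time with 3 libraries each, and 65 Gy at 6 weeks with 2. RNA of the irradiated groups was taken from the lesion, so that an irradiated library holds the tissue that was cut out around the beam and not a whole lung. Libraries are named here by the number in their labels, from 3126 to 3143. The labels do not say whether the libraries of a group came from separate mice, so the p-values below measure the spread between these libraries, and the labels name no batch. Library totals lay between 46764569 and 66797879 counts, with a median of 57608149. Levels are given in CPM, which sets the counts of a gene against the library total after scaling with the trimmed mean of M-values (TMM).

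In mice, the walls of the pulmonary veins carry a coat of striated cardiac muscle that continues from the left atrium into the lung. This muscle is built on the atrial pattern: its thick filaments hold the alpha myosin heavy chain Myh6 with the atrial light chains Myl7 and Myl4, and its thin filaments hold the cardiac actin Actc1 with the troponins Tnnt2 and Tnni3, while Mybpc3 is the cardiac myosin binding protein. Sln encodes sarcolipin, an inhibitor of the calcium pump of the sarcoplasmic reticulum that is abundant in atrial muscle, Nppa encodes the atrial natriuretic peptide, and Lrrc10 encodes a cardiac leucine-rich repeat protein.

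The label was first checked against partner genes listed for ventricular or working-heart muscle. Myl2, the ventricular regulatory light chain, had between 0 and 12 counts per library and no count in 8 of the 17 libraries, against 229 to 3553 counts of its atrial partner Myl7. Irx4, a transcription factor of ventricular muscle, had no count in 14 libraries and at most 5 in the others. Myl2 and Irx4 were thus at or near 0, but other genes of that list were not. Myh7, the beta myosin heavy chain, had 418 to 3059 counts, and the ventricular light chain Myl3 had 0 to 111. How well Myh7 separates atrial from ventricular muscle in adult mice was not tested. Whether the RNA came from vein sleeves within the lung or from atrial muscle attached to it cannot be told apart from these genes.

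The stretch of 250 bases before the annotated start of transcription was searched for short motifs of cardiac regulators. RefSeq sequence of build GRCm38.p6 was at hand for 9 of the 10 genes, in 10 windows since Tnnt2 has a pair of starts, and Sln was not matched. The searched motifs were AGATAA for GATA factors, AAGTG for NKX2-5, AGGTGT for T-box factors, the MEF2 site and the CArG box of SRF, each on both strands, and TATAAA on the strand of the gene. The promoters of 3 genes are printed, that of Nppa for the widest range of levels, and those of Actc1 and Myl7 for the CArG box. Capitals mark the matches, and each sequence runs 5′ to 3′ on the strand of its gene and ends 1 base before the start. The windows are chr4:148000472-148000721 on the plus strand for Nppa, chr2:114052876-114053125 on the minus strand for Actc1 and chr11:5898783-5899032 on the minus strand for Myl7.
Nppa: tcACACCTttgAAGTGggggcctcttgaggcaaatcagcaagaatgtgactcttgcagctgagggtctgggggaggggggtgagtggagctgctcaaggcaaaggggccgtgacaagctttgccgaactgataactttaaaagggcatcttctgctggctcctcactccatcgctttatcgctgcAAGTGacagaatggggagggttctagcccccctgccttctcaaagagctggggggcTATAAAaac
Actc1: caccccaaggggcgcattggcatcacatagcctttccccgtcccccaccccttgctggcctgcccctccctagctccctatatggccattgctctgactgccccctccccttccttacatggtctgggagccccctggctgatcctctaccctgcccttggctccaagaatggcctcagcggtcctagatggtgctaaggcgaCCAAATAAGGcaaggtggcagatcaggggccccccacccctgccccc
Myl7: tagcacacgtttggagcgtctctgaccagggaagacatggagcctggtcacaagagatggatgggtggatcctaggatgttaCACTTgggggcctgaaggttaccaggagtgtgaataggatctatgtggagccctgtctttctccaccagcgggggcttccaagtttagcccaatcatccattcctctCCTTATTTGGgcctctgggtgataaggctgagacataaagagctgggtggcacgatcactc
The Nppa window held a T-box match that begins 248 bases before the annotated start, NKX2-5 matches at 239 and 65 bases and a TATAAA match at 9 bases. Whether this TATAAA acts as a TATA box was not tested. The CArG box, the site bound by serum response factor, began 47 bases before the start of Actc1 and 61 bases before that of Myl7. It was found in 2 of the 10 windows and in 1.47% of 32851 mouse promoters of the same length. The AAGTG motif was found in 6 of the 10 windows, against 40.7% of all promoters. GATA, T-box and TATA box matches were each found in 2 windows, against 9.99%, 11.8% and 7.59% of all promoters, and a MEF2 match in 1, that of Mybpc3, against 2.92%. A match says only that these letters stand in the window, and binding was not measured. Any link between the matches and the joint levels of the genes across libraries, shown further on, was not tested.

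The 10 genes spanned a wide range of levels in normal and irradiated lung. On the RPKM scale, which divides CPM by the exon length in kilobases (computed here, with exon lengths from GENCODE), Actc1 had the highest median level over the 17 libraries with 42.1, followed by Myl7 with 35.5, Tnnt2 with 24.7, Myl4 with 24.6, Myh6 with 23.7 and Tnni3 with 20.4. The ranges of these 6 overlapped, from 9.74 to 86.3 for Actc1 and from 8.23 to 54.0 for Tnni3. Nppa had a median RPKM of 5.77, Sln of 4.08, Mybpc3 of 1.24 and Lrrc10 of 0.203. The highest Mybpc3 level, 3.33, lay below the lowest Tnni3 level, so that myosin binding protein stood apart from the filament proteins beyond the spread of the libraries. Median RPKM was 3.18 for Myh7, the beta myosin heavy chain, 0.751 for the ventricular light chain Myl3 and 0.0421 for Myl2.

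Single libraries differed widely in these genes, between groups and within them. Myh6 ran from 31.0 CPM in library 3134 (75 Gy, 2 weeks) to 363 CPM in library 3141 (75 Gy, 6 weeks), a ratio of 11.7. In the control libraries Myh6 was at 141, 200 and 154 CPM at 2 weeks, but at 106, 68.7 and 343 CPM at 6 weeks. The 6-week control library 3137 thus stood above 2 of the 3 libraries of 75 Gy at its time, while the other 6-week controls stood below every 2-week control. For the 7 genes other than Myh6, Nppa and Lrrc10, the ratio of the highest to the lowest library lay between 6.56 for Tnni3 and 14.5 for Myl7, and Lrrc10, with 2 to 47 counts, had a ratio of 23.3. Library 3134 was the lowest of the 17 for 9 of the 10 genes. Libraries 3137, 3141, 3142 and 3143 were among the 4 highest for 10, 9, 10 and 10 of the genes. Libraries 3134, 3132 and 3136 were among the 3 lowest for 10, 9 and 7 genes, so that a control library, 3136, was found next to those of 75 Gy at 2 weeks. Within groups, the SD of log2 CPM was between 0.52 for Tnni3 and 0.80 for Lrrc10 in 9 of the genes, and 2.39 for Nppa, against a median of 0.24 over all genes tested. Each of the 10 genes had a larger within-group spread than at least 80.7% of all genes. In bulk tissue, fewer cardiac muscle cells in the piece and less of this RNA per muscle cell cannot be told apart.

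**Figure D1:**
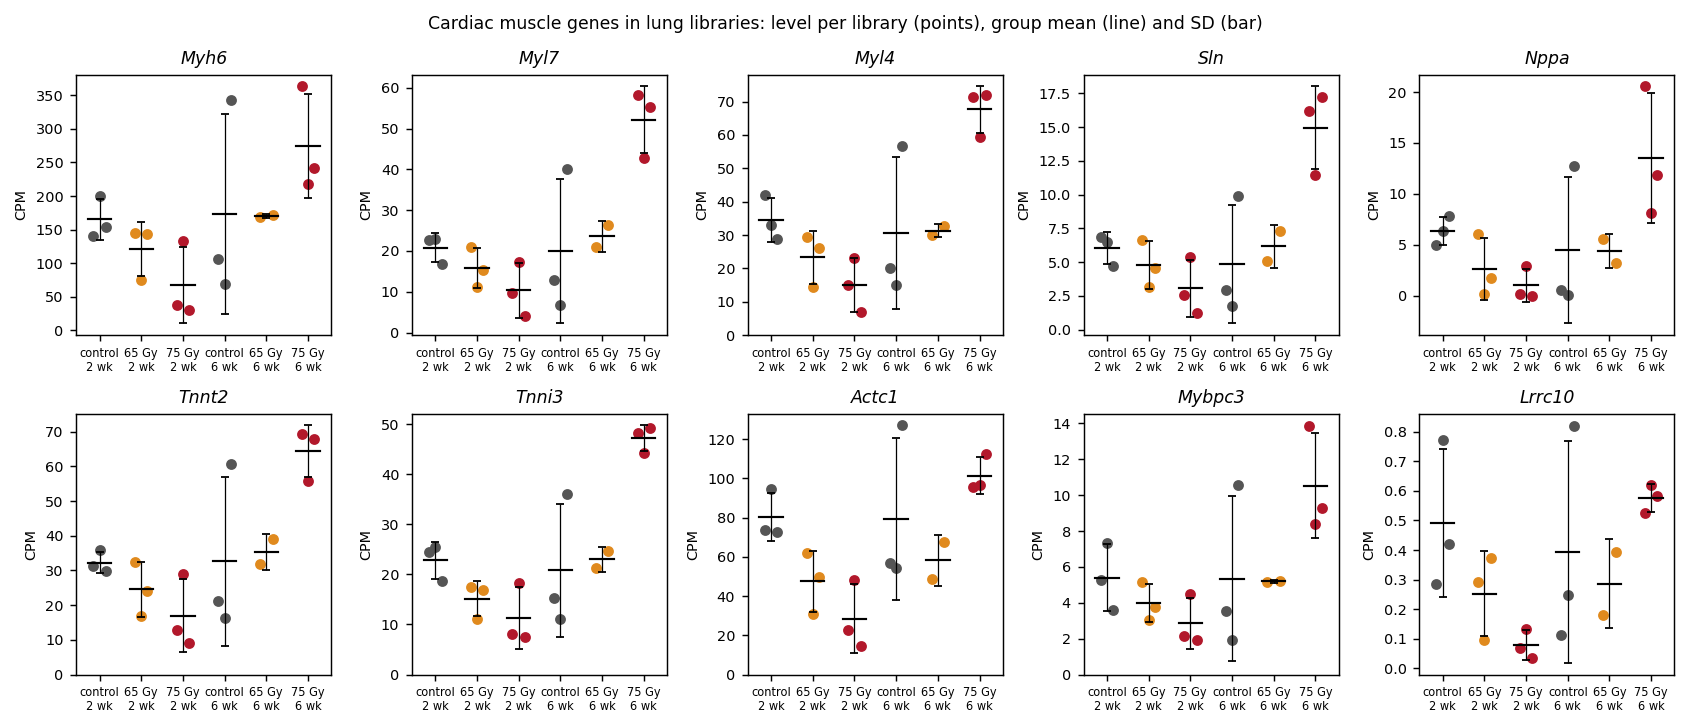
Level of each of the 10 genes in CPM (vertical axis, starting near 0) in the 6 groups, with a point for each library, a line at the group mean and a bar of 1 SD. The 75 Gy libraries of 6 weeks lie above those of 2 weeks in all 10 panels, and the 6-week controls spread over most of the range, from 68.7 to 343 CPM for Myh6.

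**Figure D2:**
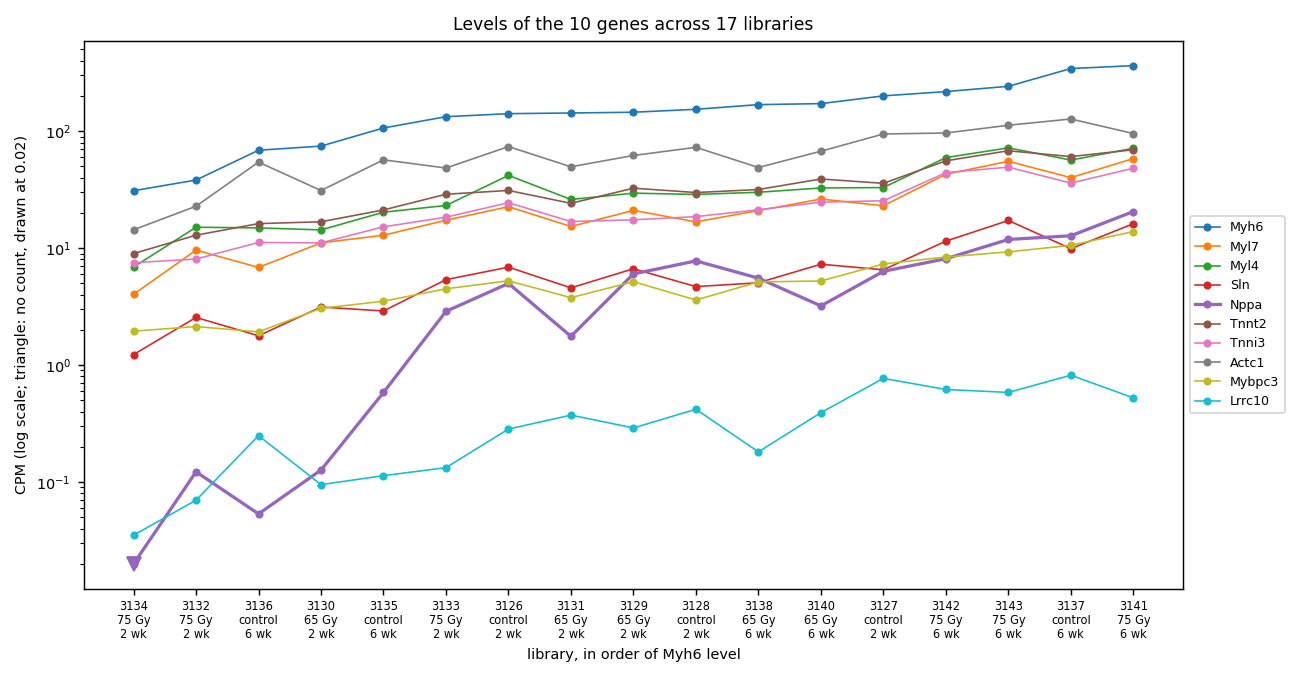
CPM on a log axis for the 10 genes in the 17 libraries, which are ordered from left to right by their Myh6 level, with the library number, dose and time under each position. The lines run nearly in parallel except for Nppa, which falls away in the 5 libraries with the lowest Myh6 (the triangle marks a library without a count).

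Nppa, the gene of the atrial natriuretic peptide, varied most. It was at 4.99, 6.34 and 7.78 CPM in the 2-week controls and at 6.02, 0.127 and 1.76 CPM in the 65 Gy libraries of that time. In the 75 Gy libraries of 2 weeks Nppa had 7, 195 and 0 counts, and in the 6-week controls 36, 3 and 731 counts. At 75 Gy and 6 weeks it stood at 20.6, 8.12 and 11.9 CPM, with up to 1253 counts. The highest library was at least 390-fold above the lowest, where a library without counts was set to the 3 counts that a count of 0 allows, which is 0.0527 CPM in library 3134. Low Nppa was thus found in control, 65 Gy and 75 Gy libraries alike. Per 1000 CPM of Myh6, Nppa ran from 0 to 56.6, with a median of 31.6, so that it moved by more than the muscle myosin did. The 5 libraries with the lowest Myh6 had between 0 and 5.48 Nppa per 1000 of Myh6. In the remaining 12 libraries the value was between 12.3 and 56.6.

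At 2 weeks, all 10 genes had lower mean levels in the 75 Gy libraries than in the controls, and 2 of them, Actc1 and Lrrc10, passed the test. Actc1 was at 73.8, 94.6 and 72.8 CPM in the controls and at 22.8, 48.4 and 14.4 CPM in the 75 Gy libraries. The groups did not overlap, and Actc1 changed by -1.49 on the log2 scale (SE 0.40, adjusted p = 0.0138 by the quasi-likelihood F test of edgeR, adjusted over all genes after Benjamini and Hochberg). Lrrc10 had 14, 36 and 22 counts in the controls and 4, 9 and 2 counts at 75 Gy. Its log2 fold change was -2.56 (SE 0.74, adjusted p = 0.0213), at a depth where few counts decide the value. These are 2 of 10 genes called lower, against 2.07% of all genes tested (7.74% in either direction), with an adjusted p of at most 0.05 and a log2 fold change of at least 1 in size. The median log2 fold change of the 10 genes was -1.10, against 0.00084 for all genes tested. For 5 of the 10 genes the unadjusted p was under 0.05, against 35.0% of all genes. The 10 genes were high and low together, as shown further on, so the counts of members here and below are not counts of independent results.

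The contractile partners of Actc1 had values of the same size but missed the threshold. Myh6 was at 38.2, 133 and 31.0 CPM in the 75 Gy libraries of 2 weeks, giving -1.29 on the log2 scale (SE 0.56, adjusted p = 0.113). Myl4, the atrial essential light chain, was at 41.9, 33.0 and 28.8 CPM in the controls and at 15.1, 23.2 and 6.89 CPM at 75 Gy, a change of -1.20 (SE 0.45, adjusted p = 0.0699). Tnni3, the inhibitory troponin, was at 24.5, 25.4 and 18.6 CPM and at 8.07, 18.4 and 7.51 CPM, a change of -1.01 (SE 0.38, adjusted p = 0.0708). In each of these 3 genes library 3133 was the 75 Gy library nearest to the controls. For Myl7, Sln, Tnnt2 and Mybpc3 the log2 fold changes were between -1.01 and -0.91, with adjusted p between 0.150 and 0.227. Nppa had -2.63 with an SE of 1.43. The 75 Gy and control groups did not overlap in 7 of the 10 genes (Myh6, Myl4, Nppa, Tnnt2, Tnni3, Actc1 and Lrrc10), against 14.8% of all genes tested that lay wholly below the controls.

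These calls rested on single libraries. Without library 3133, 7 of the 10 genes were called lower, among them Myh6 with a log2 fold change of -2.25 and Nppa with -6.65. Without library 3134 no gene was called, Actc1 having an adjusted p of 0.0558. Without control library 3127 or without library 3132, 1 gene was called, and Lrrc10 then had an adjusted p of 0.0921 and 0.0526. Without 6-week control library 3136 or 3137, which enter only through the shared estimate of the spread, 4 genes were called at 2 weeks. The share of all genes called in each of these fits is not given here, so the counts cannot be set against a background.

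After 65 Gy the same 10 genes had lower mean levels at 2 weeks too, but no gene passed the test, against 4.35% of all genes. None had an unadjusted p under 0.05, against 25.4% of all genes, and DESeq2 called none either. Actc1, with 62.0, 31.1 and 49.6 CPM, had the smallest p, at -0.76 on the log2 scale (SE 0.39, adjusted p = 0.244). Tnni3 was at 17.5, 11.1 and 16.9 CPM, with -0.59 (SE 0.38, adjusted p = 0.362). These were the 2 genes whose 65 Gy libraries all lay below the controls, against 13.5% of all genes tested. The median over the 10 genes was -0.51, against -0.0085 for all genes. Both doses were compared with the same 3 control libraries, so their values are not independent. Set against each other, 75 Gy and 65 Gy at 2 weeks gave no call among the members by edgeR, none at an unadjusted p under 0.05 (7.12% of all genes) and none by DESeq2, where edgeR called 0.0% of all genes. Lrrc10 and Nppa had the largest differences in size, -1.61 (SE 0.76) and -1.36 (SE 1.42), both lower after 75 Gy.

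At 6 weeks the direction after 75 Gy was the opposite: all 10 genes had higher mean levels than the controls, and Sln and Tnni3 passed the test. Sln, the sarcolipin gene, was at 2.90, 1.78 and 9.90 CPM in the controls and at 16.2, 11.5 and 17.2 CPM at 75 Gy. All 75 Gy libraries lay above the highest control, and the log2 fold change was 1.62 (SE 0.55, adjusted p = 0.0307). Tnni3 was at 15.2, 11.2 and 36.0 CPM in the controls and at 48.2, 44.2 and 49.2 CPM at 75 Gy, again without overlap. Its log2 fold change was 1.18 (SE 0.38, adjusted p = 0.0238). These are 2 of 10 genes called higher, against 7.28% of all genes tested (10.4% in either direction). The median over the 10 genes was 1.06, against 0.040 for all genes, and 5 genes had an unadjusted p under 0.05, against 45.6% of all genes. The share of members under that p is thus near that of all genes at this time.

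The atrial light chains came close to the threshold at 6 weeks. Myl7 was at 12.9, 6.85 and 40.1 CPM in the controls and at 58.3, 42.8 and 55.3 CPM at 75 Gy, a change of 1.39 on the log2 scale (SE 0.53, adjusted p = 0.0515). Myl4 was at 20.3, 14.9 and 56.6 CPM and at 71.4, 59.4 and 72.0 CPM, with 1.14 (SE 0.45, adjusted p = 0.0572). In both, the control library 3137 was the only control near the 75 Gy group. Tnnt2, Mybpc3 and Myh6 had log2 fold changes of 0.98, 0.98 and 0.67, with adjusted p of 0.0959, 0.127 and 0.368. Nppa had 1.60 with an SE of 1.33. Actc1, which was called lower at 2 weeks, was at 56.9, 54.4 and 127 CPM in the 6-week controls and at 95.4, 96.4 and 112 CPM at 75 Gy, a log2 difference of 0.35 (SE 0.39, adjusted p = 0.506). For Lrrc10 the value was 0.55 (SE 0.63). The groups did not overlap in 4 genes (Myl7, Myl4, Sln and Tnni3), against 29.4% of all genes tested that lay wholly above the controls.

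As at 2 weeks, single libraries decided which genes passed. Without control library 3137, 8 of the 10 genes were called higher, all except Actc1 and Lrrc10, and Nppa then had a log2 fold change of 5.37. Without control library 3135 or 3136, or without library 3143, no gene was called, and the adjusted p of Sln was 0.114, 0.108 and 0.0805. Without library 3141, 1 gene was called, Sln then having an adjusted p of 0.064. Without 2-week library 3133 or 3134, 4 genes were called. Here too the share of all genes called in each fit is not given, so the counts have no background.

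**Figure D3:**
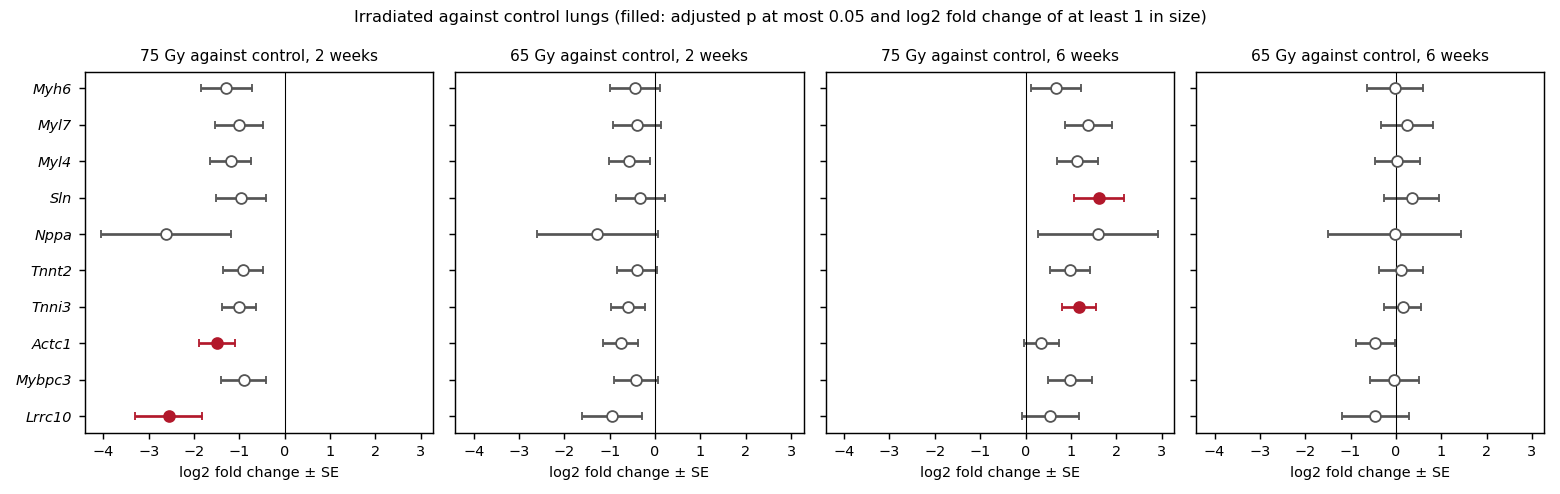
Log2 fold change with its SE (horizontal axis) for the 10 genes in each comparison of an irradiated group with the controls of its time, filled where the adjusted p was at most 0.05 and the log2 fold change at least 1 in size. Values after 75 Gy lie left of 0 at 2 weeks and right of 0 at 6 weeks, and those after 65 Gy are smaller in size, except for Actc1 at 6 weeks (-0.45 against 0.35).

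After 65 Gy at 6 weeks the members stood near the controls. No gene was called, against 5.28% of all genes, none had an unadjusted p under 0.05 (29.4% of all genes), and DESeq2 called none. The median of the log2 fold changes was 0.0074, against 0.0081 for all genes, with 5 genes above 0 and 5 below. Myh6 was at 169 and 172 CPM in the pair of libraries, with a log2 fold change of -0.020 (SE 0.62), and the SE leaves room for changes as large as those seen after 75 Gy. No member had its 65 Gy libraries wholly above or below the controls, against 28.2% and 28.1% of all genes. Between 75 Gy and 65 Gy at 6 weeks no member was called, by edgeR or by DESeq2, where edgeR called 0.0% of all genes. All 10 genes were higher at 75 Gy, with a median difference of 1.03, and Myl4 and Tnni3 had an unadjusted p under 0.05, against 6.49% of all genes, with adjusted p of 0.735 for both.

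The change between the time points was then tested directly. The effect of 75 Gy at 6 weeks minus its effect at 2 weeks was above 0 in all 10 genes, between 1.84 for Actc1 and 4.23 for Nppa, with a median of 2.27 on the log2 scale, against -0.0034 for all genes. For 10 of 10 members the unadjusted p was under 0.05, against 16.1% of all genes, but no member passed after adjustment over all genes, with adjusted p between 0.109 for Tnni3 and 0.305 for Nppa. Few genes passed this test at all, 0.254% by edgeR, and DESeq2 called 2 members. Leaving out library 3137 brought 6 members past the threshold, and leaving out 3133 brought 1. The shares of all genes called by DESeq2 or in these fits without a library are not given here, so these counts have no background beside them. Compared as values alone, the 75 Gy libraries of 6 weeks lay above all those of 2 weeks in 10 of 10 genes, against 14.2% of all genes tested. The members vary together, with a median Pearson's r of 0.928 over their pairs, so neither count of 10 is a count of independent results. Between the control libraries of 6 weeks and 2 weeks no member was called, by edgeR or by DESeq2, with a median of -0.098, none at an unadjusted p under 0.05 (15.5% of all genes), and 0.576% of all genes called. The same difference after 65 Gy was between 0.31 and 1.24 in the 10 genes, without a call (0.0136% of all genes, and no member by DESeq2) or an unadjusted p under 0.05 (8.65% of all genes). Over all irradiated against all control libraries, with both times and doses weighted alike, the median was -0.12, no member was called by edgeR or DESeq2, against 8.48% of all genes, and 1 of 10, Actc1, had an unadjusted p under 0.05 (49.4% of all genes), at -0.59 on the log2 scale (SE 0.24, adjusted p = 0.0602). Without control library 3135, Lrrc10 was called in this comparison, with a log2 fold change of -1.08.

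The members were also compared with each other inside each library, as CPM per 1000 CPM of Myh6, which sets aside how much muscle RNA a library holds. The median over the 17 libraries was 443 for Actc1, 221 for Tnnt2, 192 for Myl4, 143 for Tnni3, 130 for Myl7, 40.5 for Sln, 35.6 for Mybpc3 and 2.01 for Lrrc10. Actc1 per 1000 of Myh6 ran from 371 to 791 in the controls, with a median of 498, and from 263 to 597 in the irradiated libraries, with a median of 417. Sln ran from 25.9 to 48.8 in the controls and from 30.02 to 71.3 in the irradiated libraries. Actin and sarcolipin thus shifted in opposite directions against the myosin, with overlap between the groups. They were not alone in this. Control and irradiated medians were 116 and 149 for Myl7, 31.9 and 38.2 for Mybpc3, 197 and 225 for Tnnt2, 135 and 144 for Tnni3, and 189 and 197 for Myl4. Lower medians were found for Lrrc10, with 2.56 and 1.83, and for Nppa, with 33.5 and 21.7. These medians join both times and did not hold at 6 weeks throughout. At 6 weeks the medians of control, 65 Gy and 75 Gy were 5.48, 25.8 and 49.1 for Nppa, and 2.39, 1.68 and 2.42 for Lrrc10. A shift of Myh6 itself would enter all of these values. With log2 CPM of Myh6 as a covariate, a fit added after the data had been seen, Actc1 was lower in all irradiated against all control libraries by 0.45 (log2 difference -0.45, SE 0.11, adjusted p = 0.00466). In the same fit Sln was higher, with a log2 difference of 0.46 (SE 0.16, adjusted p = 0.0334). Both were below the fold limit, so that 0 of the 9 genes were called, against 8.33% of all genes by both limits and 40.0% by adjusted p alone. At 6 weeks after 75 Gy the same fit gave log2 differences of 1.11 for Sln (adjusted p = 0.00599), 0.89 for Myl7 (adjusted p = 0.0144), 0.74 for Tnni3 (adjusted p = 0.00137), 0.69 for Myl4 (adjusted p = 0.0407) and 0.48 for Tnnt2 (adjusted p = 0.0219). Sln alone also passed the fold limit, against 11.5% of all genes, and 35.3% of all genes passed by adjusted p alone. At 2 weeks after 75 Gy no member passed the adjusted p in this fit, against 7.29% of all genes (3.95% with the fold limit), and Actc1 had -0.64 (SE 0.22, adjusted p = 0.100).

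Members have partner genes that take their place in other muscle, and these did not follow them alike. Myh7, the beta myosin heavy chain of slow muscle, lies next to Myh6 on chromosome 14. It was at 36.8, 40.4 and 44.3 CPM in the 2-week controls and at 9.12, 13.8 and 7.35 CPM in the 75 Gy libraries of that time. In the 6-week controls it was at 40.2, 45.6 and 53.4 CPM, and at 28.4, 17.3 and 19.0 CPM after 75 Gy. All 6 controls lay above all 11 irradiated libraries, while Myh6 overlapped. Myh7 fell in all 5 comparisons of irradiated with control libraries, with log2 fold changes of -2.0 (adjusted p = 2.93e-05) after 75 Gy and -1.08 (adjusted p = 0.00447) after 65 Gy at 2 weeks, and of -1.10 (adjusted p = 0.00110) and -1.24 (adjusted p = 0.00421) at 6 weeks. The share of Myh6 in the counts of both myosins was between 60.1% and 86.5% in the controls and between 80.1% and 92.7% in the irradiated libraries, with means of 76.6% ± 9.36 (SD, n = 6) and 87.8% ± 4.98 (SD, n = 11). At 6 weeks after 75 Gy it was 92.7%, 92.7% and 92.7%, with 95% Wilson intervals inside 92.2% to 93.1%, which cover counting error only. How reads of the alike coding sequences of Myh6 and Myh7, or of other close paralogs, were divided by the counting is not described, so these levels are uncertain to that extent.

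The light chain pair was nearly all atrial. The share of Myl7 in the counts of Myl7 and Myl2 was 99.9% ± 0.145 (SD, n = 11) in the irradiated and 99.3% ± 0.542 (SD, n = 6) in the control libraries, a difference of 0.634 percentage points with a 2-sided exact permutation p of 0.00695 (0.0139 after adjustment over 2 shares). Myl2 had 12, 0 and 10 counts in the 2-week controls, and no count in the 6 irradiated libraries of 2 weeks. At 6 weeks it had 6, 5 and 3 counts in the controls, 0 and 4 after 65 Gy and 4, 10 and 7 after 75 Gy, so that the irradiated Myl2 counts did not lie below those of the controls. The 2-week control library 3127, without a Myl2 count, and the 6-week control library 3137, at 99.87%, did not share the difference, the latter lying above the irradiated libraries 3140, 3142 and 3143. The share of Myl4 in the counts of Myl4 and Myl3 was 98.0% ± 1.04 (SD, n = 11) and 96.7% ± 1.34 (SD, n = 6), with a 2-sided exact permutation p of 0.0554, which did not pass. Nppb, the gene of the brain natriuretic peptide, had 6, 0 and 0 counts in the 2-week controls and none in the 6-week controls, but 47, 18 and 26 counts at 75 Gy and 2 weeks, and 12, 5 and 23 counts at 75 Gy and 6 weeks. It was called higher by edgeR at 6 weeks after 75 Gy (adjusted p = 0.0185) and over all irradiated libraries (adjusted p = 0.00451), but not at 2 weeks (adjusted p = 0.0508). After 65 Gy the direction was also up at both times, without a call (adjusted p = 0.333 at 2 weeks and 0.0608 at 6 weeks). Between 75 Gy and 65 Gy no difference was called, with log2 differences of 1.47 (adjusted p = 0.723) at 2 weeks and 0.33 (adjusted p = 0.956) at 6 weeks. The rise is therefore not shown to be particular to 75 Gy. No fold against the controls is given, because the 6-week controls had no count.

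**Figure D4:**
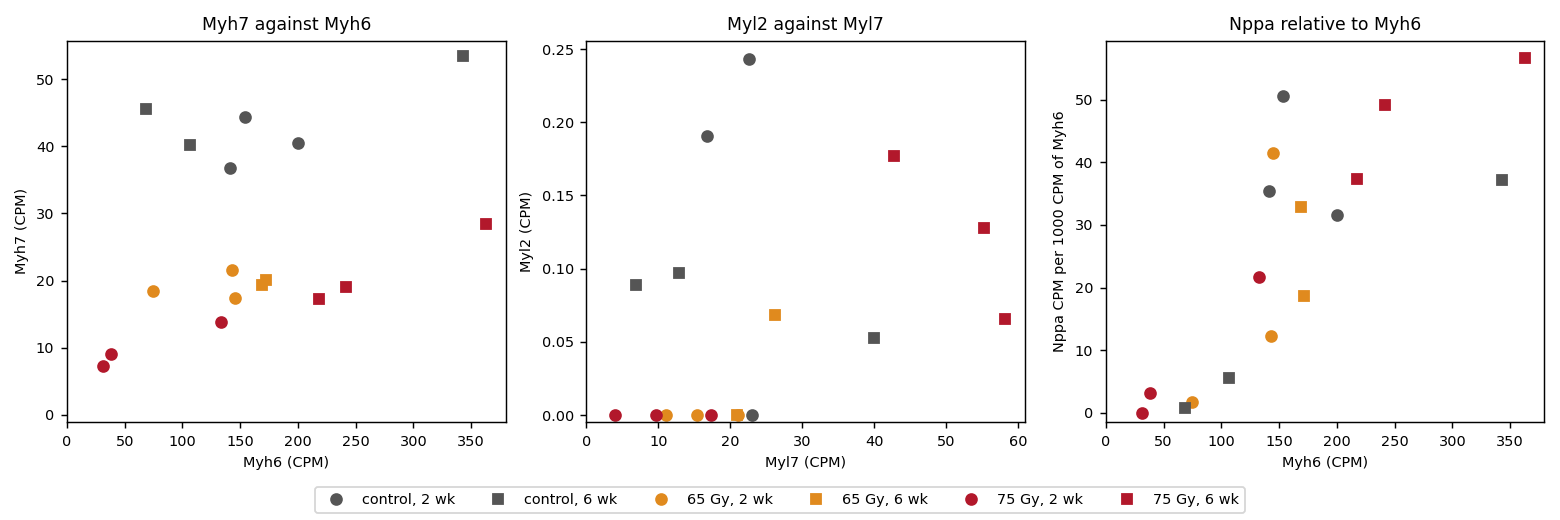
For each of the 17 libraries, Myh7 against Myh6 (left), Myl2 against Myl7 (middle), both in CPM, and Nppa per 1000 CPM of Myh6 against Myh6 (right), with colours for dose and circles and squares for 2 and 6 weeks. Control libraries lie above the irradiated ones in Myh7 at every Myh6 level, Myl2 stays under 0.25 CPM, and Nppa is near 0 where Myh6 is lowest.

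Across the 17 libraries the 10 genes were high and low together. Over their 45 pairs, Pearson's r of log2 CPM was between 0.791 (Mybpc3 and Lrrc10) and 0.991 (Myl7 and Sln), with a median of 0.928, and Spearman's rho between 0.782 and 0.985, with a median of 0.919. All 45 pairs passed a permutation test with 100000 resamples, with adjusted p between 1.29e-05 and 0.00016 for r and between 1.41e-05 and 0.0004 for rho. The smallest of these is set by the number of resamples. Without the 2 libraries farthest from the median of the gene on the x axis, r was between 0.709 and 0.985, with a median of 0.901. Within the 11 irradiated libraries r was between 0.883 and 0.994, and within the 6 control libraries between 0.678 and 0.992, with medians of 0.958 and 0.940. The relation therefore held within each arm. Each arm joins groups, however, so that its r includes the differences between times and, in the irradiated arm, doses. The relation within single groups was not tested. Tnnt2 had the highest median r with the other members, 0.965, and Lrrc10, the gene with the fewest counts, the lowest, 0.844. Actc1 followed with 0.896.

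Other genes of heart muscle were examined in lists written by hand. As background, 2.07% of all genes were called lower at 2 weeks after 75 Gy and 7.28% higher at 6 weeks. Of 28 genes of the cardiac sarcomere and Z-disc, 5 were called lower at 2 weeks, with a median log2 fold change of -0.96. They were Myh7, Myl2, the Z-disc and actin-binding genes Synpo2l (-1.40, adjusted p = 0.0173) and Xirp1 (-1.93, adjusted p = 0.0150), and the kinase gene Alpk3 (-1.26, adjusted p = 0.0117). At 6 weeks after 75 Gy, 3 were called higher, namely Fhl2 (1.37), Smpx (1.65) and Tnnc1 (1.14), the last being the troponin that binds calcium, and 1, Myh7, lower, with a median of 0.65, so that the share called higher was near that of all genes. Of 25 tested genes of calcium handling and excitation, Trdn, which anchors the calcium release channel, was called lower at 2 weeks (-1.29, adjusted p = 0.0357) and higher at 6 weeks (1.36, adjusted p = 0.0154). Popdc2 was lower at 2 weeks (-1.09, adjusted p = 0.00100). Pln, the phospholamban gene and a relative of Sln in function, was called higher at 6 weeks (1.44, adjusted p = 0.0321), as was the sodium channel subunit Scn4b (1.26, adjusted p = 0.0235). Of 18 secreted and metabolic genes, the muscle creatine kinase Ckm fell at 2 weeks (-1.83, adjusted p = 0.0357) together with Perm1 (-1.03, adjusted p = 0.0412). At 6 weeks Nppb and Corin (1.38, adjusted p = 0.0370), the protease that processes the natriuretic peptide precursors, were higher. Of 15 tested cardiac transcription factors, none was called at 2 weeks, with 5 at an unadjusted p under 0.05, a share near the 35.0% of all genes, and 1, Tbx3, was lower at 6 weeks (-1.29, adjusted p = 0.000397). The median log2 fold changes of the calcium, secreted and transcription factor lists were -0.48, -0.73 and -0.47 at the earlier and 0.16, 0.76 and -0.22 at the later time. After 65 Gy the sarcomere list had 1 call at each time, Myh7. The secreted and transcription factor lists had none, with 2 and 1 of their genes at an unadjusted p under 0.05 at 2 weeks (25.4% of all genes) and 1 and 4 at 6 weeks (29.4%). The calcium handling and excitation list after 65 Gy is not reported here.

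The genes whose pattern was most like that of the members were sought among the other 15789 genes tested whose mean log2 CPM was not below 0, by Pearson's r with the mean log2 CPM of the 10 genes over the 17 libraries. These values are a description, since the libraries share dose, time and dissection. The 10 highest were Actn2 (0.985), Mybphl (0.978), Ckm (0.977), Mb (0.975), Ldb3 (0.965), Hrc (0.965), Tnnc1 (0.964), Mylk3 (0.957), Ckmt2 (0.956) and Mapk10 (0.956). Of these, 8 stood in the cardiac lists: Actn2 and Ldb3 build the Z-disc, Mb encodes myoglobin and Hrc binds calcium in the sarcoplasmic reticulum. Mylk3, the cardiac myosin light chain kinase gene, and Mapk10 were in no list. Only 73 genes, 0.462% of those ranked, had an r over 0.8, and the median was -0.034. The share over 0.8 was 16 of 25 ranked sarcomere genes, 9 of 16 secreted and metabolic genes, 7 of 20 calcium and excitation genes and 1 of 9 transcription factors, Smyd1 (0.913). Of the 3 ranked genes of the ventricular or working-heart list, Tcap (0.869) and Fhl2 (0.830) were also over 0.8, and its median was 0.83. Myh7, the last of the 3, had an r of 0.45 and Atp2a2, the calcium pump that many cell types use, 0.37. The 5 lowest were 9930111J21Rik2 (-0.812), Ube2q1 (-0.796), Osbpl8 (-0.789), Cep192 (-0.787) and Ankfy1 (-0.777).

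**Figure D5:**
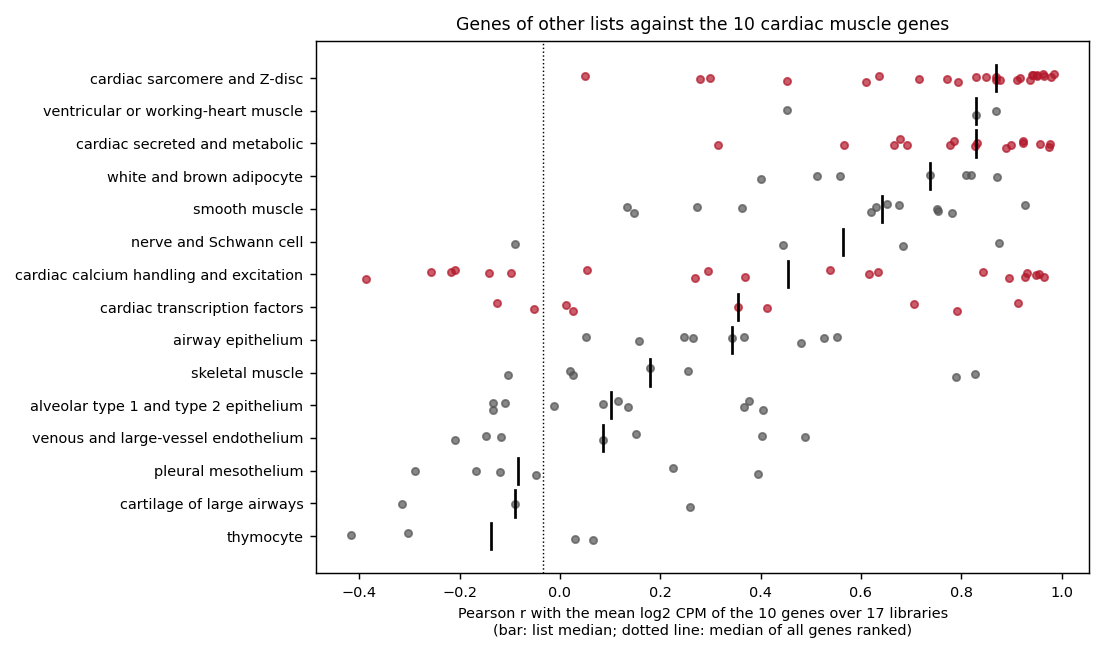
Pearson's r (horizontal axis) between the log2 CPM of each ranked gene in 15 lists and the mean log2 CPM of the 10 genes over 17 libraries, with a bar at each list's median and a dotted line at the median of all ranked genes, -0.034. Heart muscle lists are red and other tissues grey, and most sarcomere genes lie above 0.8.

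Markers of other tissues that lie beside the veins moved with the members in part. The 10 adipocyte genes summed to 102 to 122 CPM in the 2-week controls and 29.2 to 52.7 CPM after 75 Gy, and to 35.1 to 142 CPM in the 6-week controls and 124 to 156 CPM after 75 Gy. In the 65 Gy libraries these genes summed to 29.4, 32.8 and 246 CPM at 2 weeks and to 79.4 and 93.7 CPM at 6 weeks. Adipoq, the adiponectin gene that defines fat cells, had 19 to 652 counts and was at 0 in no library, and its r with the members was 0.87. Ucp1, which marks brown fat, had no count in 6 libraries, a median of 6 counts and at most 1117. Ucp1 was called higher by edgeR at 2 weeks after 65 Gy (log2 fold change 6.45, adjusted p = 0.0377), where 4.35% of all genes were called in either direction. A single library held 1117 of the 1208 Ucp1 counts of all 17 libraries, so this call rests on that library and not on the group. After 75 Gy, 1 adipocyte gene was called lower at 2 weeks (Cidec), against 2.07% of all genes, and 1 higher at 6 weeks (Fabp4), against 7.28%, with median log2 fold changes of the list of -2.78 and 0.94. The 12 smooth muscle genes summed to 1393 to 1467 CPM in the 2-week controls and 713 to 1078 CPM after 75 Gy, and to 1388 to 1729 and 1169 to 1244 CPM at 6 weeks, with a median r of 0.64. The sums stood below the controls at both times, but the single genes did not all do so: at 6 weeks 6 of the 12 lay above 0, where Pln was called higher and none lower, and at 2 weeks Cnn1 was called lower. Nerve genes summed to 237 to 278 CPM and 114 to 238 CPM at 2 weeks and to 271 to 292 CPM and 126 to 174 CPM at 6 weeks. The 20 skeletal muscle genes summed to at most 24.8 CPM in any library, with Myh4 at 0 in 15 libraries. Median r was 0.74 for the 7 ranked adipocyte genes, above the 0.45 of the cardiac calcium list and the 0.35 of the transcription factors, and 0.56 for nerve. It was 0.34 for airway epithelium, 0.10 for alveolar epithelium, 0.085 for venous and large-vessel endothelium, -0.084 for pleural mesothelium, -0.090 for cartilage and -0.14 for thymocytes. The part of fat, nerve or smooth muscle in the levels of the members was not tested.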

How the data were processed

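Lung RNA of 17 libraries was measured by stranded mRNA sequencing. The authors used Trimmomatic for trimming, HISAT2 for alignment to GRCm38.p6 and StringTie for expression, and the values they deposited are whole-number read counts of 45777 genes, not normalized. How StringTie's output became counts, and whether strand was used, is not given in the sources used here. Another 65 Gy library of 6 weeks was not analysed here. Multiplying by TMM factors changes CPM with the makeup of a library, and overlapping or alike genes may share reads.

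Counts of all 17 libraries were fitted in R 4.3.3 with edgeR 4.0.16 (filterByExpr with a minimum count of 10 and total of 15, TMM, quasi-likelihood F test, 1 coefficient per group, 22052 genes tested, Benjamini-Hochberg adjustment). Calls needed an adjusted p not above 0.05 and a log2 fold change of 1 or more in size. Log2 CPM for correlations used a prior count of 2. The fit was tested on simulated data. Single shares were compared with exact permutation tests, and intervals cover counting error only. DESeq2 1.42.0, RLE and upper-quartile factors, robust shrinkage, other filters, only the groups compared, no fold limit, and each library left out in turn were tried as alternatives. Named were the 10 genes, near paralogs, the genes of the lists, and the 10 genes most and 5 least like the members. The members and lists were chosen with earlier results of these data known. Promoters came from RefSeq, exon lengths and gene coordinates from GENCODE on GRCm38.p6, and Python 3.11.15 with scipy 1.17.1 was used. Results of a few listed genes are not reported here.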

Additional observations from a re-analysis of the deposited data

Results flagged for a closer look

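The effect of 75 Gy against controls differed between 6 weeks and 2 weeks by an unadjusted p under 0.05 in each of the 10 genes, in a test of the difference itself. On the log2 scale, 6 weeks minus 2 weeks, it was 1.96 for Myh6, 2.40 for Myl7, 2.34 for Myl4, 2.60 for Sln and 4.23 for Nppa. For Tnnt2 it was 1.91, for Tnni3 2.19, for Actc1 1.84, for Mybpc3 1.89 and for Lrrc10 3.11. None passed after adjustment over all genes, with adjusted p from edgeR between 0.109 and 0.305. The 10 genes vary together, so these are not 10 independent results. After 65 Gy, Tnni3 differed in the same direction by 0.74, since its libraries lay below the controls at 2 weeks and near them at 6 weeks, with an adjusted p of 0.703 that did not pass.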

How the results depend on the processing

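No paired analysis was possible because every library carries a number of its own, and none of these numbers joins libraries across groups. The number of members called at 2 weeks after 75 Gy was 2, and it was 1 with at least 10 counts in every library, 1 with only the groups compared and 0 with the Myh6 level as a covariate. At 6 weeks after 75 Gy it was 2, and 4 with at least 10 counts in every library and 1 with the Myh6 covariate. The covariate was chosen after seeing the data. The difference between the effects of 75 Gy at both times called 0 members in edgeR and 2 in DESeq2. Shares of all genes called under these alternatives, other than the Myh6 covariate, are not given here. The share of Myl4 in place of that of Myl7 gave a difference of 1.23 percentage points that did not pass. The log2 fold change of Myh6 at 6 weeks after 65 Gy, -0.020, was 0.00034 with upper-quartile factors and 0.0057 with only the groups compared. The cause was not tested.

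Leaving out each library in turn, the members called ranged from 0 to 7 at 2 weeks after 75 Gy, from 0 to 8 at 6 weeks after 75 Gy, from 0 to 1 over all irradiated libraries, and from 0 to 6 for the difference of the 75 Gy effects, and the Myl7 share difference from 0.522 to 0.779. Shares of all genes called in these fits are not given here. Directions changed in the comparisons near 0, as follows. At 6 weeks after 65 Gy, the log2 fold change ranged from -0.40 to 0.96 for Myh6, from -0.16 to 1.26 for Myl7, from -0.29 to 0.83 for Myl4, from -0.050 to 1.39 for Sln, from -0.61 to 3.74 for Nppa, from -0.21 to 0.92 for Tnnt2, from -0.15 to 0.80 for Tnni3, from -0.69 to 0.064 for Actc1, from -0.44 to 0.93 for Mybpc3 and from -1.10 to 0.66 for Lrrc10. Over all irradiated libraries it ranged from -0.51 to 0.22 for Myh6, from -0.15 to 0.56 for Myl7, from -0.31 to 0.25 for Myl4, from -0.032 to 0.69 for Sln, from -1.59 to 1.30 for Nppa, from -0.22 to 0.34 for Tnnt2, from -0.22 to 0.26 for Tnni3 and from -0.30 to 0.38 for Mybpc3. The highest of these values came without control library 3137. At 2 weeks after 75 or 65 Gy and at 6 weeks after 75 Gy no member changed direction in the alternatives other than the Myh6 covariate. With that covariate, values at 2 weeks after 75 Gy turned positive for Myl7 (0.21), Sln (0.24), Tnnt2 (0.12) and Mybpc3 (0.32), those at 2 weeks after 65 Gy for Sln (0.061) and Myl7 (0.00035), and Actc1 at 6 weeks after 75 Gy turned to -0.14. Of the values of single genes under the alternatives without the covariate, 1108 kept direction and side of the threshold, 35 changed direction, 25 newly passed and 12 no longer passed. Lrrc10, with 2 to 47 counts, and Nppa in the libraries near 0 are limited by counting.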

Other observations

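Myl1, a light chain gene of fast skeletal muscle, had an r of 0.83 with the mean of the 10 members, with 28 to 230 counts per library, while the defining fast myosin gene Myh4 had no count in 15 of the 17 libraries. The 15 tested skeletal muscle genes had 5 calls over all irradiated against all control libraries, all higher, against 8.48% of all genes, and a median log2 fold change of 0.56, in a comparison where the median of the members was -0.12. Pleural mesothelium genes had 3 of 6 called lower in that comparison, with a median of -0.95, and a median r of -0.084 with the members.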
